A study of Homo sapiens with 24 samples.

Results

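The p53 target genes described here are 38 genes known to be switched on by the transcription factor p53, and 35 of them could be measured among 18055 genes tested in the series. Members were found by symbol: each gene was read from the probe set, a group of short probes against 1 transcript, with the highest mean value among those naming that gene alone. The remaining 3 have no values: BBC3 shares its only probe set with another symbol, and for BTG2 and FDXR no probe set with that single symbol was found in the probe table used here.

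RNA was measured on 24 Affymetrix HG-U133 Plus 2.0 arrays from HCT116, an established human colorectal carcinoma line, after 72 h of treatment. All groups received the same volume of the solvent DMSO, which alone made up the control group of 4 arrays. The 10 treated groups had 2 arrays each: DAC (decitabine) at 5 µM and 120 nM, Aza (azacytidine) at 1500 nM and 150 nM, and the prodrugs G668684 at 7 µM and 150 nM, G669043 at 1500 nM and 150 nM, and G669071 at a higher and a lower dose. The titles and source names disagree on the doses of G669071, so no concentration is given for it. Nothing in the labels says whether replicates were separate cultures, so p-values measure the spread between these arrays, which may be technical. All results rest on 1 cell line in culture.

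p53 is a DNA-binding factor that is held at a low level by the ubiquitin ligase MDM2 and released when DNA is damaged or other stress signals arrive. It binds a sequence made of a pair of half-sites and raises genes that stop the cell cycle, repair DNA, change metabolism or start cell death, and among its targets are genes that switch p53 off again. DAC and Aza are nucleoside analogues that enter DNA (Aza also RNA), where they trap DNA methyltransferases, so methylation is lost as cells divide.

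Promoter windows of 300 bases, 250 before to 50 after a gene's start, were taken from RefSeq (build GRCh38.p14) and matched 31 of the 38 listed genes, 28 of them measured. They are shown because the p53 half-site is what joins these genes, and they show how little of it lies at the starts themselves. A pair of p53 half-sites 0 to 13 bases apart, with at most 2 mismatches in all and the central C and G of each kept, was found in 4 of the 28 measured genes (14.3%): AEN, DDB2, FAS and MDM2. It was found in 3.62% of all 27305 genes of the table. A gene counted if any of its windows matched. The table held 35116 windows for its 27305 genes, while MDM2 had 4, FAS 3, DDB2 2 and AEN 1. The shares were not adjusted for the number of windows. The half-site's consensus is its own reverse complement, so one search covers both strands. Half-sites are in capitals and neighbouring bases in lower case; for DDB2 the pair lies 6 to 26 bases into the transcript, and only the pair is shown.
AEN, chr15:88621291-88621339, plus strand: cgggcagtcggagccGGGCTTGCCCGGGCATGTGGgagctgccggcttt
DDB2, chr11:47214979-47214999, plus strand: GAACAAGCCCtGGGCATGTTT
FAS, chr10:88991294-88991343, plus strand: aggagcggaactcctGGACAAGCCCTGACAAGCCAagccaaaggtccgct
MDM2, chr12:68808908-68808957, plus strand: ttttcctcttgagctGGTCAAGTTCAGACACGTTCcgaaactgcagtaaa

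The pair in DDB2 had 0 mismatches and a 1-base spacer, and those in AEN, FAS and MDM2 had 2 mismatches and no spacer. An exact single half-site, the weaker criterion, occurred in 6 of the 28 genes (21.4%), against 8.06% of all genes. Besides AEN, DDB2 and FAS these were PLK2, RPS27L and SESN1.
PLK2, chr5:58460194-58460233, minus strand: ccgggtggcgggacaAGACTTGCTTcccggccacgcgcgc
RPS27L, chr15:63157512-63157551, minus strand: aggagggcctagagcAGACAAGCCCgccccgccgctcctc
SESN1, chr6:109009013-109009052, minus strand: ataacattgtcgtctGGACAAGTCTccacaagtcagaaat
These matches describe letters in short windows. No binding of p53 was measured.

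The values are RMA values, a normalised brightness per probe set, given below as log2, on which a difference of 1 is a doubling. A gene was called where limma's test, with Benjamini-Hochberg adjustment over all 18055 genes, gave an adjusted p under 0.05, and errors of differences are limma's standard errors (SE). All 7 colorectal epithelial markers looked at reached the filter, with DMSO means of 7.4 to 13.69, as did 7 of 9 markers of other cell types. Of these, blood cell markers had DMSO means of 4.39 (PTPRC, below the filter) to 8.15 (CD3E), endothelial ones 5.16 (CDH5) to 8.05 (PECAM1) and fibroblast ones 4.25 (LUM, below the filter) to 7.37 (DCN). CD3E and PECAM1 thus read above VIL1, the lowest epithelial marker, although probes differ in brightness at the same level of RNA. The part of other cells in the results was not tested. The 4 DMSO arrays fell into a pair made of replicates 1 and 2 and a pair made of 3 and 4, correlating at 0.997 within each pair and 0.99 to 0.991 between them. The signal of 3' over 5' actin probes, a sign of RNA integrity, was -0.03 and 0 in the first pair and 0.24 and 0.15 in the second (log2). The p53 targets differed between the pairs: 24 of 35 were higher in the second, by a median of 0.21 against -0.03 for all genes, and MDM2 was higher by 0.70, RRM2B by 0.60, TIGAR by 0.57 and PLK2 by 0.55. Each count against DMSO is therefore also given against either pair alone.

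In each of the 10 treated groups some p53 target genes were called higher than in DMSO, from 2 to 25 of the 35, and no member was called lower. At the higher doses 25 of 35 members were called higher after DAC at 5 µM, 24 after G668684 at 7 µM, 24 after the higher dose of G669071, 20 after Aza at 1500 nM and 17 after G669043 at 1500 nM. Of all genes, 18% were called higher after DAC at 5 µM and 14.2% lower, 17.5% and 14.7% after G668684, 15.8% and 13.7% after G669071, 8.13% and 9.18% after Aza, and 5.88% and 3.25% after G669043. The members' shares of 71.4%, 68.6%, 68.6%, 57.1% and 48.6% lie well above these. Median log2 differences over the 35 members were 0.74, 0.80, 0.52, 0.31 and 0.30 in the same order, while those of all genes lay between -0.04 and 0.03. The 10 comparisons share the DMSO arrays, so they are not independent of each other. These are bulk values, so a higher level in every cell and a higher level in part of the cells cannot be told apart.

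The lower doses raised fewer members. After DAC at 120 nM 15 of 35 were called higher (12.5% of all genes higher, 9.9% lower), after G668684 at 150 nM 14 (10.7% and 10.4%) and after the lower dose of G669071 13 (8.68% and 6.91%). After Aza at 150 nM 4 members were called higher (1.03% and 0.46%) and after G669043 at 150 nM 2 (0.709% and 0.161%). Without adjustment, at p under 0.05, 14 and 12 members were higher in these last 2 groups, with 1 and 3 lower. Of all 18055 genes 1225 and 1971 were higher by that criterion, with 876 and 1454 lower. Against DMSO replicates 1 and 2 alone, the counts for the higher doses of DAC, G668684, G669071, Aza and G669043 were 28, 27, 25, 23 and 21. Against replicates 3 and 4 alone they were 25, 25, 21, 19 and 17. For the lower doses in the same order they were 17, 15, 13, 11 and 18 against the first pair and 16, 15, 15, 8 and 1 against the second. The count for G669043 at 150 nM thus turned on which controls were used. The share of all genes called against a single pair is not given here, so these counts are not set against a background. Against a single pair up to 2 members a group were called lower. These included EDA2R (-0.50) and APAF1 (-0.46) after G669043 at 150 nM against the first pair, and GADD45A after Aza at 1500 nM (-0.41) against the second.

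For each comparison only arrays of its own groups were left out in turn, not those of other groups, which share the estimate of spread. All 24 calls after G668684 at 7 µM, and all 25 after DAC at 5 µM other than that of TNFRSF10A, were kept whichever of these arrays was left out. After the higher dose of G669071 the calls of TNFRSF10C, BAX and PERP were lost without some single array, and after Aza at 1500 nM those of MDM2, TNFRSF10C, PLK3, EPHA2 and SESN1. After G669043 at 1500 nM 9 of 17 were lost (MDM2, PPM1D, FAS, CYFIP2, PHLDA3, EPHA2, TIGAR, SESN1 and ZMAT3), and 8 members were called without its replicate 2, the array with the highest actin 3' to 5' signal (0.34). At the lower doses the calls of PPM1D, PLK3 and PHLDA3 for DAC were lost, those of PPM1D, AEN and PLK3 for G668684, and those of PPM1D, TNFRSF10C, AEN, PLK2, PHLDA3 and ZMAT3 for G669071, whose count was 8 without either of its arrays. None of the calls at 150 nM of Aza or G669043 withstood this: Aza had 1 without replicate 1 and 0 without replicate 2, and G669043 0 without either of its arrays, 1 without DMSO replicate 1 and 10 without DMSO replicate 3.

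**Figure D1:**
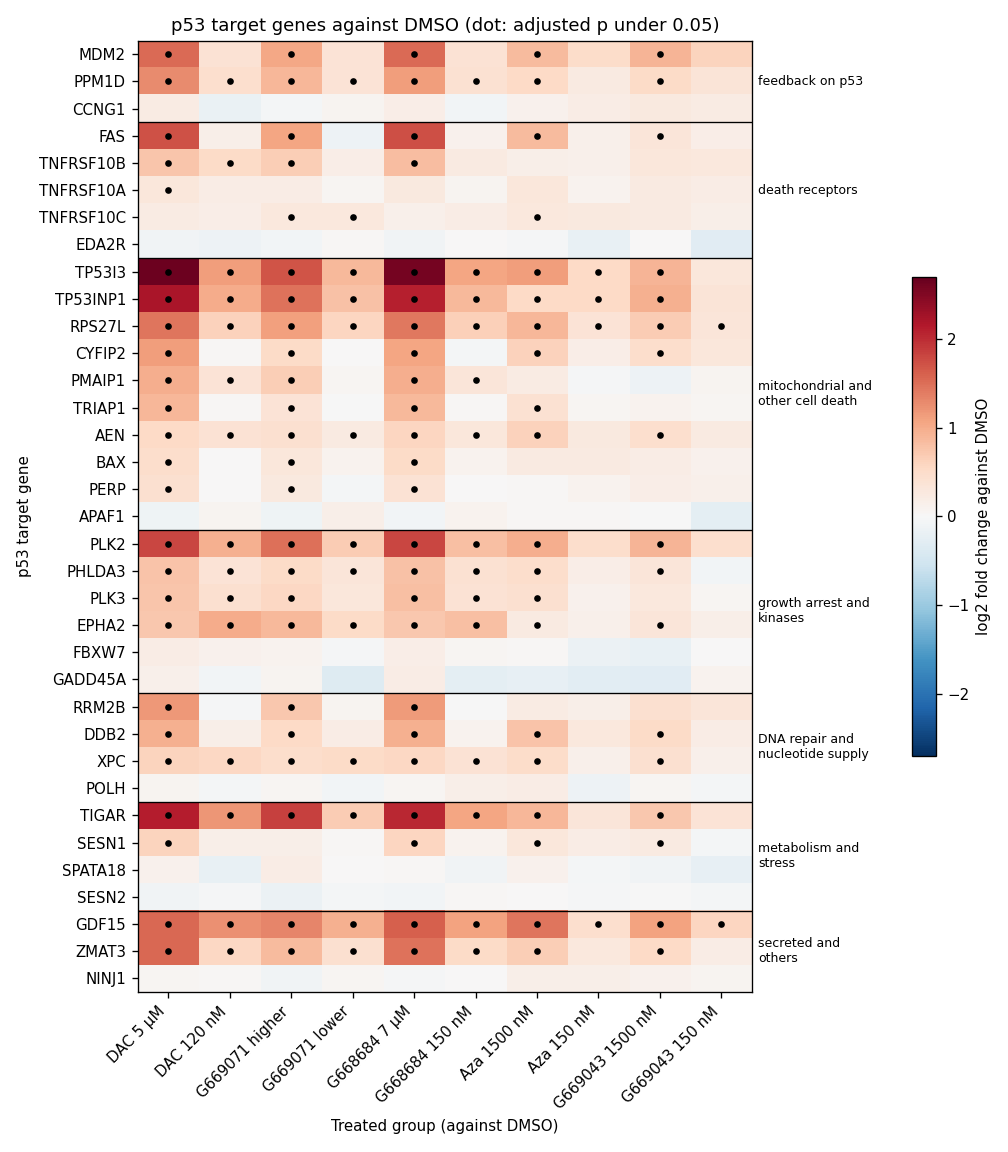
Log2 fold change against DMSO (colour) of the 35 measured p53 target genes (rows, grouped by role) in the 10 treated groups (columns), with a dot where limma's adjusted p was under 0.05. The darkest cells are TP53I3, TP53INP1 and TIGAR after DAC at 5 µM and G668684 at 7 µM, and no cell of lowered colour carries a dot.

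**Figure D2:**
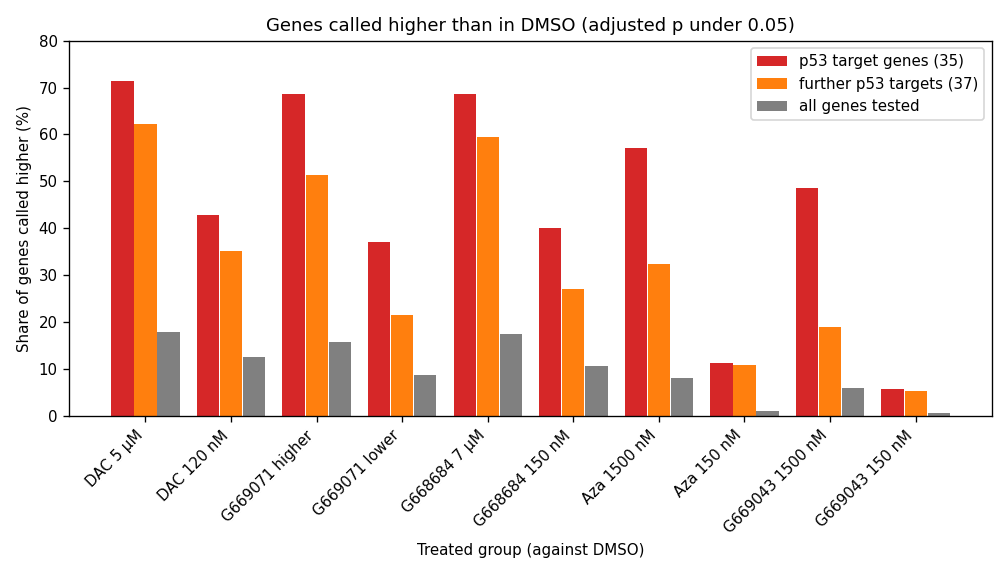
Share of genes called higher than in DMSO, in percent, for the 35 p53 target genes, 37 further p53 targets and all genes tested, in each treated group. The p53 targets reach 71.4% after DAC at 5 µM and 5.71% after G669043 at 150 nM, where 0.709% of all genes were called.

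Of the 3 genes that act back on p53, MDM2 and PPM1D rose and CCNG1 was called in no group. MDM2 read 9.56, 9.59, 10.41 and 10.14 in DMSO, 11.41 and 11.51 after DAC at 5 µM, 11.47 and 11.44 after G668684 at 7 µM, and 11 and 10.94 after the higher dose of G669071. It read 10.76 and 10.79 after Aza and 10.67 and 11.01 after G669043 at 1500 nM. All 10 higher-dose arrays lay above all 4 controls, although the controls themselves spanned 0.85. MDM2 was called in all 5 higher-dose groups (differences of 0.85 to 1.53, SE 0.22) and in no lower-dose group, and against DMSO replicates 3 and 4 alone the calls after Aza (0.50, adjusted p = 0.069) and G669043 (0.56, adjusted p = 0.072) at 1500 nM were lost. PPM1D encodes the phosphatase WIP1, which removes activating phosphates from p53 and from the kinases above it. It was called in 8 of 10 groups, with its largest rise after DAC at 5 µM (1.27, SE 0.11, adjusted p = 3.1e-08). CCNG1, a cyclin that brings a phosphatase to MDM2, differed from DMSO by -0.17 to 0.27.

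Among the 5 receptors of the TNF receptor family FAS stood out. It read 8.68, 8.55, 8.85 and 8.87 in DMSO, 10.48 and 10.45 after DAC at 5 µM, 10.49 and 10.47 after G668684 at 7 µM, and 9.69 and 9.93 after the higher dose of G669071. After Aza at 1500 nM it read 9.67 and 9.50 and after G669043 at 1500 nM 9.05 and 9.08. Each of these arrays lay above every DMSO array, and the difference at DAC 5 µM was 1.73 (SE 0.097, 3.31-fold, adjusted p = 3.6e-11). The smallest of the 5 calls, 0.33 after G669043, was lost against DMSO replicates 3 and 4 alone (0.20, adjusted p = 0.17) and without DMSO replicate 1 or 2 or either array of its group (adjusted p = 0.071 to 0.27). At the lower doses FAS overlapped the controls or lay next to them: it read 8.77 and 9.02 after DAC at 120 nM and 8.59 and 8.62 after the lower dose of G669071, and it was called in none of these groups. One of its 5 probe sets stayed near the control level throughout (0.10 after DAC at 5 µM), while the other 4 were higher there by 1.58 to 2.07. With probe sets that can bind several transcripts left out, only that flat and dimmest one (DMSO mean 6.52) stood for FAS. FAS was then not called and differed by -0.068 after G668684 at 7 µM, where the 4 left out were higher by 1.48 to 2.15.

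TNFRSF10B, a receptor for the death ligand TRAIL, was called after both doses of DAC (0.74 and 0.52, SE 0.11), after G668684 at 7 µM (0.82) and after the higher dose of G669071 (0.67). TNFRSF10A, another TRAIL receptor, was called at DAC 5 µM alone (0.30, SE 0.11, adjusted p = 0.044). That call was lost without either array of the group (adjusted p = 0.076 and 0.33), without DMSO replicate 1 (0.12) or 2 (0.079), and against DMSO replicates 3 and 4 (0.16, adjusted p = 0.30). TNFRSF10C, a decoy receptor without a death domain, was called in 3 groups at 0.29 each, but in none of them against DMSO replicates 1 and 2 alone (adjusted p = 0.16 to 0.26). EDA2R was called in no group.

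Of the 10 measured genes of the mitochondrial and other death pathways, 9 rose after DAC at 5 µM, G668684 at 7 µM and the higher dose of G669071, and APAF1, the scaffold of the apoptosome, was the exception. TP53I3, an oxidoreductase linked to oxidative stress in cell death, had the largest difference of all members after DAC at 5 µM and G668684 at 7 µM. It read 7.68, 7.79, 8.06 and 7.80 in DMSO, 10.50 and 10.45 after DAC at 5 µM and 10.41 and 10.44 after G668684 at 7 µM. It read 9.02 and 8.91 after DAC at 120 nM, 8.88 and 8.93 after G668684 at 150 nM, 9.48 and 9.6 after the higher and 8.67 and 8.75 after the lower dose of G669071. No array of these groups overlapped DMSO, and the rise at DAC 5 µM was 2.64 (SE 0.085, 6.24-fold, adjusted p = 1e-14). In other groups other members led: TIGAR after the higher dose of G669071 (1.84, against 1.71 for TP53I3) and GDF15 after Aza at 1500 nM (1.45, against 1.12).

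For Aza TP53I3 read 8.99 and 8.91 at 1500 nM and 8.28 and 8.44 at 150 nM, and for G669043 8.77 and 8.75, then 8.18 and 8.09. The last was above all controls by only 0.03 and was not called (0.30, adjusted p = 0.093), so TP53I3 was called in 9 of 10 groups. TP53INP1, a stress protein acting in cell death and autophagy, was called in the same number of groups and rose by 2.20 (SE 0.10, 4.61-fold) after DAC at 5 µM and by 2.10 after G668684 at 7 µM.

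RPS27L, a ribosomal protein that is a p53 target, is one of the 2 members called in every treated group. It read 11.82, 11.92, 12.09 and 12.10 in DMSO, and its lowest treated array, 12.24 after G669043 at 150 nM, was above all of them. The rises ran from 0.33 (SE 0.070, adjusted p = 0.034) in that group to 1.44 after DAC at 5 µM. The call at 150 nM of G669043 was lost against DMSO replicates 3 and 4 alone (0.22, adjusted p = 0.10) and without DMSO replicate 1 (0.28, adjusted p = 0.074).

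PMAIP1 encodes NOXA, which blocks survival proteins of the BCL2 family, and BAX forms pores in the mitochondrial membrane. PMAIP1 rose by 0.98 after DAC at 5 µM, 0.97 after G668684 at 7 µM and 0.67 after the higher dose of G669071, but was not called after Aza (0.21, adjusted p = 0.067) or G669043 at 1500 nM (-0.14, adjusted p = 0.33). BAX was called in the same 3 higher-dose groups at 0.49, 0.52 and 0.31 (SE 0.10), and in the third not against DMSO replicates 3 and 4 alone (0.26, adjusted p = 0.071). TRIAP1, an inhibitor of apoptosis, rose by 0.90 after DAC at 5 µM and 0.87 after G668684 at 7 µM and was near its DMSO level at both lower doses (0.02 and 0.03, SE 0.057). CYFIP2, a partner of the RNA-binding protein FMRP, showed the same split, with 1.12 and 1.07 against 0.03 and -0.05. AEN, an exonuclease acting in apoptosis, was called in 8 groups, between 0.25 and 0.62, and PERP, a membrane protein of cell junctions, in 3. With probe sets that can bind several transcripts left out, another one stood for PERP and read below DMSO after DAC at 5 µM (-0.20, adjusted p = 0.11). A dimmer one that also remained was higher there by 0.67.

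Of the 6 measured growth arrest genes and kinases, 4 rose after DAC at 5 µM and the same 4, PLK2, PLK3, PHLDA3 and EPHA2, after DAC at 120 nM. PLK2 is a stress-induced polo-like kinase. It read 8.75, 8.79, 9.34 and 9.29 in DMSO, 10.80 and 10.91 after DAC at 5 µM, and 9.70 and 10.29 after DAC at 120 nM. After Aza at 1500 nM it read 10.08 and 9.97. All these arrays lay above the controls, and the rises were 1.81 (SE 0.15), 0.95 and 0.98. PHLDA3, which keeps the kinase AKT from the membrane, rose by 0.76 after DAC at 5 µM and 0.80 after G668684 at 7 µM. PLK3 rose by 0.74 and 0.80 in these groups. Its other, dimmer probe sets stayed near DMSO: they differed by -0.03 and 0.01 after DAC at 5 µM, and by -0.04 and 0.08 after G668684 at 7 µM.

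EPHA2, an ephrin receptor tyrosine kinase, was called against DMSO in 8 groups. Between the doses of DAC or of G668684 it was not called. It read 9.23, 9.20, 9.36 and 9.26 in DMSO, 9.93 and 10.05 after DAC at 5 µM, and 10.29 and 10.24 after DAC at 120 nM. After G668684 it read 9.87 and 10.11 at 7 µM and 10.05 and 10.10 at 150 nM. The lower dose of DAC gave the higher values without overlap, but the difference between doses was not called (-0.28, SE 0.093, adjusted p = 0.053). It was called in 5 of the other settings, including the actin signal as a covariate (-0.31, adjusted p = 0.015), and not without any 1 of the 4 arrays (adjusted p = 0.077 to 0.30). For G669071 the higher dose gave the higher level, 10.11 and 10.17 against 9.72 and 9.84, and that difference was called (0.36, SE 0.093, adjusted p = 0.017), though not without replicate 1 (0.066) or 2 (0.13) of the higher dose or replicate 1 of the lower (0.18). The higher doses of Aza and G669043 differed from the lower by 0.12 and 0.17 and were not called. GADD45A, a stress sensor, and FBXW7, a substrate receptor of a ubiquitin ligase, were called in no group, with differences of -0.35 to 0.21 and -0.19 to 0.19. Against a single DMSO pair GADD45A was called in both directions: higher by 0.41 after G668684 at 7 µM against the first, lower by 0.55 after the lower dose of G669071 against the second.

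Of the 4 genes of DNA repair and nucleotide supply, XPC and DDB2, which recognise damage for nucleotide excision repair, rose at all 5 higher doses. XPC read 8.80 to 8.88 on the 4 DMSO arrays and was called at both doses of DAC, by 0.61 and 0.55 (SE 0.071), and of G668684 and G669071. It was also called at 1500 nM of Aza (0.49) and G669043 (0.42), and not at 150 nM of either (0.13 and 0.15). DDB2 read 8.25, 8.39, 8.28 and 8.22 in DMSO, 9.20 and 9.30 after DAC at 5 µM, and 8.48 and 8.4 after DAC at 120 nM. It was called at all 5 higher doses (0.51 to 0.96, SE 0.069) and at no lower dose. RRM2B, the p53-inducible subunit of ribonucleotide reductase, rose by 1.17 after DAC at 5 µM, 1.14 after G668684 at 7 µM and 0.72 after the higher dose of G669071 (SE 0.18), the last not against DMSO replicates 3 and 4 alone (0.41, adjusted p = 0.059). After DAC at 120 nM its arrays read 9.11 and 9.89, about as far apart as the DMSO arrays, which read 9.16, 9.28, 9.90 and 9.75. POLH, a polymerase that copies past DNA lesions, was called in no group.

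In the metabolism group TIGAR, a phosphatase that turns glucose towards the pentose phosphate pathway, was called in 8 groups. It read 9.06, 9.24, 9.77 and 9.67 in DMSO, 11.54 and 11.57 after DAC at 5 µM, and 10.47 and 10.79 after DAC at 120 nM. After Aza at 1500 nM it read 10.39 and 10.27 and at 150 nM 9.71 and 9.83, the last pair overlapping the controls. The rise at DAC 5 µM was 2.12 (SE 0.14, 4.35-fold, adjusted p = 2.9e-10). SESN1, a sestrin that restrains the growth kinase mTORC1, rose by 0.59 after DAC at 5 µM and 0.58 after G668684 at 7 µM (SE 0.066), and by 0.31 after Aza and 0.24 after G669043 at 1500 nM. Its relative SESN2 differed from DMSO by -0.15 to 0.03 and was not called, nor was SPATA18, which acts in mitochondrial quality control. The probe set used for SPATA18 differed by 0.13 after DAC at 5 µM and 0.03 after G668684 at 7 µM. A second, dimmer one (DMSO mean 3.55) differed by 1.95 and 2.02 there and was not tested.

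GDF15, a secreted stress cytokine, was the other member called in all 10 groups. It read 9.78, 9.97, 10.30 and 10.03 in DMSO, 11.52 and 11.62 after DAC at 5 µM, and 11.29 and 11.20 after DAC at 120 nM. After Aza it read 11.49 and 11.45 at 1500 nM and 10.46 and 10.48 at 150 nM, and after G669043 11.15 and 11.08, then 10.65 and 10.56. No treated array overlapped DMSO. The rise was 1.55 at DAC 5 µM and 1.23 at 120 nM, 1.45 at Aza 1500 nM and 0.45 at 150 nM (SE 0.091), and the last was lost without either array of its group (adjusted p = 0.17 and 0.21). The 2 dimmer probe sets of GDF15 differed from DMSO by 0.16 and 0.45 after DAC at 5 µM. With probe sets that can bind several transcripts left out, a dim one (DMSO mean 5.79) stood for GDF15. It differed by -0.04 at 150 nM of G669043 (adjusted p = 0.85). ZMAT3, an RNA-binding zinc finger protein, rose by 1.54 after DAC at 5 µM and was called in 8 groups. NINJ1, which ruptures the membrane of dying cells, was called in none.

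**Figure D3:**
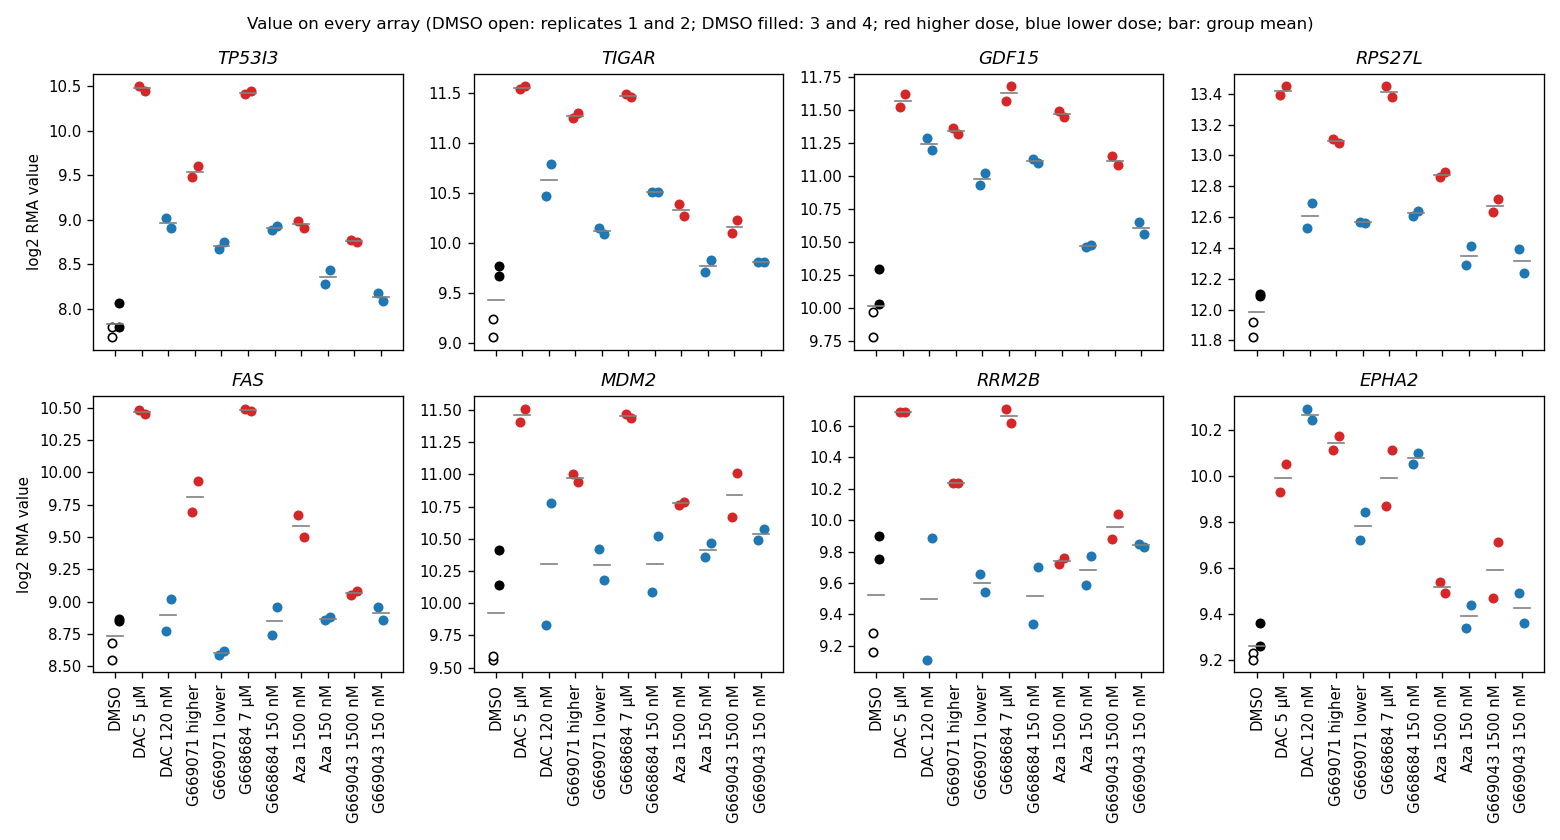
Log2 RMA value on each of the 24 arrays for 8 p53 target genes; open DMSO points are replicates 1 and 2, filled ones 3 and 4, red points higher doses, blue points lower doses, and bars group means. GDF15 and RPS27L lie above all DMSO arrays in every group, FAS and RRM2B stay near DMSO at the lower doses, EPHA2 is as high at DAC 120 nM as at 5 µM, and MDM2 spans 9.56 to 10.41 within DMSO.

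Counted over members, 2 were called in all 10 groups (RPS27L, GDF15), 2 in 9 (TP53I3, TP53INP1) and 8 in 8 (PPM1D, AEN, PLK2, PHLDA3, EPHA2, XPC, TIGAR, ZMAT3). These 12 members called in 8 or more groups are 34.3% of the 35, against 2.7% of all genes tested, and the groups share their controls. The 9 called in none (25.7%, against 74% of all genes) were CCNG1, EDA2R, APAF1, GADD45A, FBXW7, POLH, SESN2, SPATA18 and NINJ1. This holds for the probe sets used. After DAC at 5 µM another probe set differed by 0.56 for POLH, 0.59 for FBXW7 and 1.95 for SPATA18, while a further one of POLH differed by 0.01. The mean of all kept probe sets gave 29 calls after DAC at 5 µM, 29 after G668684 at 7 µM and 28 after the higher dose of G669071. It gave 16 after G669043 at 1500 nM. The shares of all genes under that setting are not given here.

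Comparing doses of one compound sets no treated array against DMSO, so the gap between the DMSO pairs does not enter the difference. At the higher dose 19 members were called higher for DAC (8.73% of all genes higher, 5.94% lower) and 23 for G668684 (7.78% and 3.77%). The counts were 15 for G669071 (5.65% and 3.71%), 10 for Aza (2.41% and 3.38%) and 7 for G669043 (1.69% and 2.18%). By sign alone, 32, 28, 29, 31 and 32 of 35 members were higher in the same order. Of all 18055 genes 7948, 7898, 8058, 10002 and 9028 were. No member was called lower at the higher dose of any compound. With only the arrays of each contrast in the fit, the counts called higher were 12 for DAC, 20 for G668684 and 21 for G669071. They were 17 for Aza and 8 for G669043, and 1 member was called lower for G669071 and 1 for G669043. The shares of all genes in those fits are not given here. For DAC the largest differences were 1.57 for FAS (SE 0.11, adjusted p = 3.1e-08), 1.51 for TP53I3, 1.21 for TP53INP1 and 1.19 for RRM2B, and for G668684 they were 1.63 for FAS and 1.52 for TP53I3. For Aza the largest was 1.00 for GDF15, and for G669043 0.62 for TP53I3. Replicates 1 and 2 of DAC at 120 nM stood apart for some members (MDM2 9.83 and 10.78), as did those of G668684 at 150 nM (10.09 and 10.52). Without replicate 1 the MDM2 dose difference was not called for DAC (0.68, adjusted p = 0.10) or for G668684 (0.94, adjusted p = 0.09), and the G668684 count was 15. Without some single array 6 of the 19 calls for DAC were lost (MDM2, BAX, PERP, PLK2, PHLDA3, GDF15) and 8 of the 23 for G668684 (MDM2, TNFRSF10B, BAX, AEN, PERP, GADD45A, PLK3, PHLDA3), while those of FAS, TP53I3, CYFIP2, TRIAP1, DDB2 and RRM2B held.

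Members were sorted into those called at both doses and those called at the higher dose alone. The shares of all genes in these classes are not given, here or in the next paragraph. The class counts are therefore not set against a background. A member not called at the lower dose may still differ there: MDM2 differed by 0.38 after DAC at 120 nM and by 0.38 after G668684 at 150 nM. For DAC 15 members were called at both doses, and 10 of these also differed between doses. Another 10 were called at 5 µM and not at 120 nM, and for 9 of them the difference between doses was itself called: MDM2, FAS, BAX, PERP, CYFIP2, TRIAP1, DDB2, RRM2B and SESN1. For G668684 14 were called at both doses, and the 10 called at 7 µM alone all differed between doses, namely the same 9 and TNFRSF10B. Of the 15 members called at both doses of DAC, AEN, XPC, EPHA2, PLK3 and TNFRSF10B were not called between doses.

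For G669071 13 members were called at both doses and 11 at the higher alone, 6 of which differed between doses. For Aza these numbers were 4, 16 and 7, and for G669043 2, 15 and 5. The smaller dose counts depended on single arrays: for G669071 the count was 8, 9 and 8 without higher-dose replicate 2, lower-dose replicate 1 and lower-dose replicate 2. For G669043 it was 1 to 4 without any 1 of its arrays (2 and 2 without replicates 1 and 2 at 1500 nM, 4 and 1 without replicates 1 and 2 at 150 nM), and for Aza it was 6 without replicate 2 at 150 nM.

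**Figure D4:**
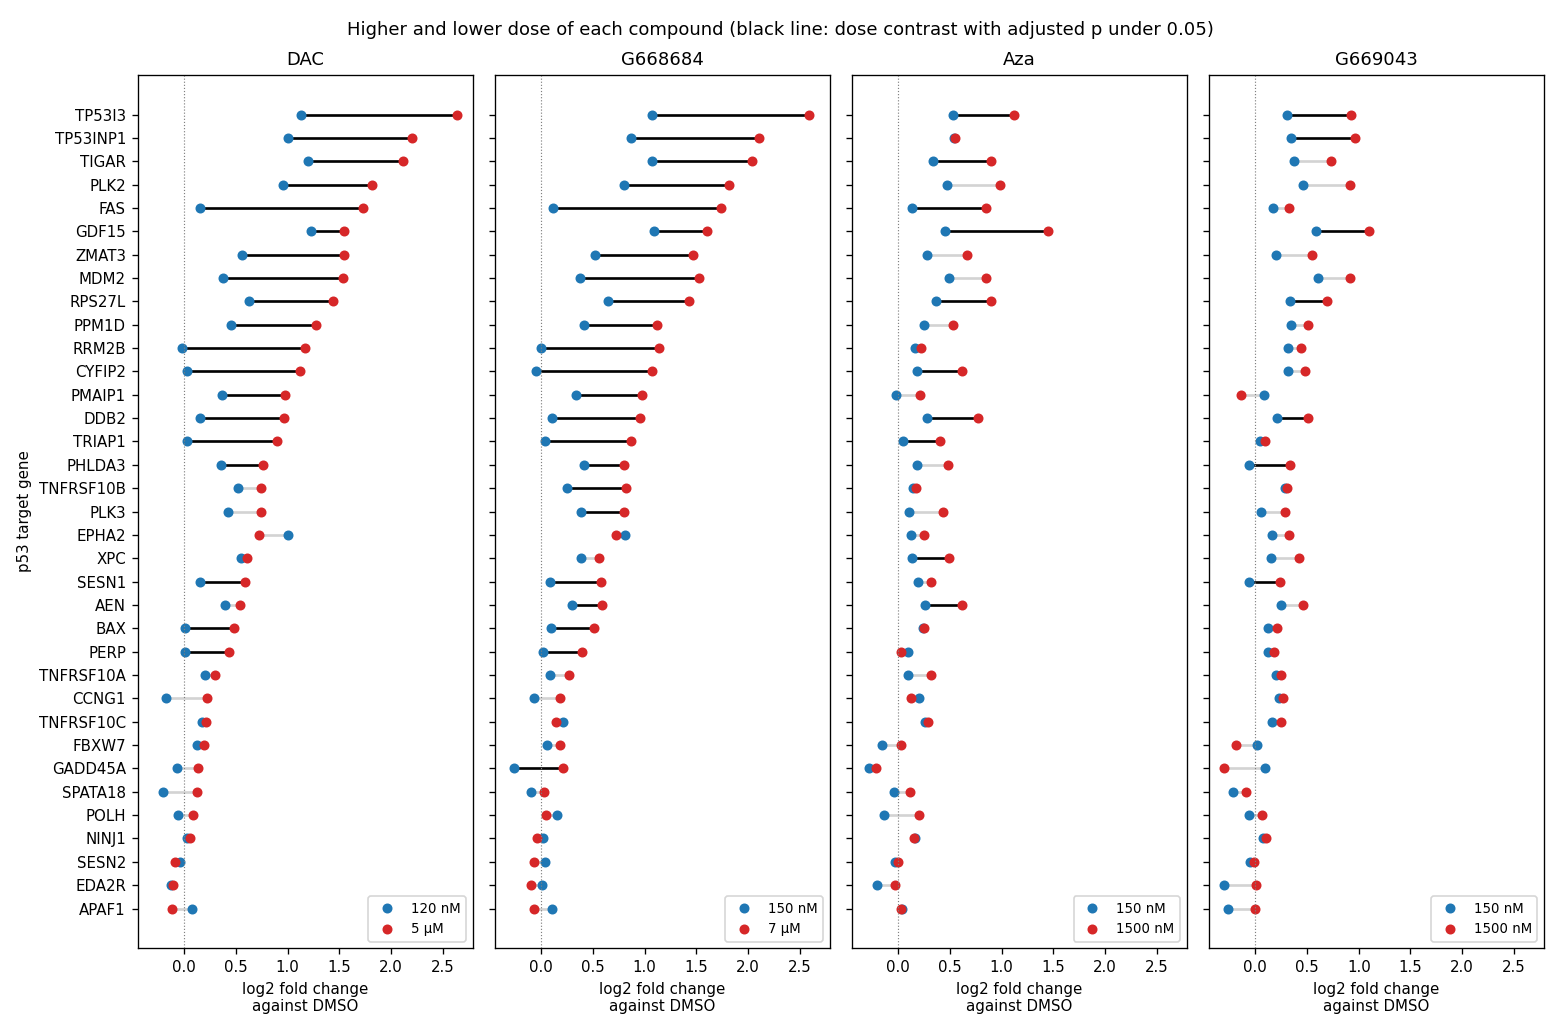
Log2 fold change against DMSO of the 35 p53 target genes at the higher dose (red) and the lower dose (blue) of DAC, G668684, Aza and G669043, ordered by the value at DAC 5 µM; a black line marks a called difference between doses. FAS, RRM2B, CYFIP2 and TRIAP1 start near 0 at the lower doses of DAC and G668684, TP53I3 and TIGAR start near 1, and the blue point of EPHA2 lies to the right of the red for both.

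Aza and G669043 are the only compounds that share the higher as well as the lower stated dose. The label of G669043 carries the prefix Aza. G668684 shares only their lower stated dose, and it was not tested against either of them. At 1500 nM the level after G669043 was below that after Aza in 27 of 35 members, and 3 were called lower and 0 higher (0.659% of all genes lower, 1.47% higher). Of all 18055 genes only 7842 were higher after G669043. The median difference was -0.025 over all genes and -0.07 over the members. With arrays centred on their medians 0 members were called. FAS read 9.67 and 9.50 after Aza and 9.05 and 9.08 after G669043, a difference of -0.52 (95% interval -0.75 to -0.29, adjusted p = 0.018). TRIAP1 read 11.75 and 11.72 against 11.42 and 11.43, a difference of -0.31 (-0.45 to -0.17, adjusted p = 0.016). PMAIP1 read 11.88 and 11.97 against 11.65 and 11.49, a difference of -0.36 (-0.54 to -0.17, adjusted p = 0.042). In each the arrays of the compounds did not overlap, but all 3 calls were lost when any 1 of the 4 arrays was left out (adjusted p = 0.058 to 0.53). With p-values adjusted over both doses compared, FAS (0.031) and TRIAP1 (0.028) stayed under 0.05 and PMAIP1 did not (0.073).

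TP53INP1 went the other way, with 8.68 and 8.66 after Aza and 8.99 and 9.18 after G669043, but was not called (0.41, 95% interval 0.16 to 0.67, adjusted p = 0.081). Over the 35 members the interval end farthest from zero was 0.75, that of the called difference of FAS. The median half-width was 0.24, so for a typical member differences below about 0.24 cannot be told from none. This limit differs by gene. At 150 nM 0 members were called in either direction by limma (0.0111% of all genes higher, 0.0554% lower), with 1 higher and 4 lower at an unadjusted p under 0.05, and 18 of 35 were lower after G669043. Of all 18055 genes 923 were higher and 924 lower at that unadjusted p, and 9379 had a positive difference. The difference of the dose effects (1500 nM minus 150 nM, G669043 against Aza) was called in 0 members (0.449% of all genes in either direction), with 7 at an unadjusted p under 0.05 and a smallest adjusted p of 0.13. At that unadjusted p 728 of all 18055 genes had a positive and 1060 a negative difference of dose effects. DAC at 5 µM and G668684 at 7 µM were given at unlike doses and are set side by side above without a test.

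**Figure D5:**
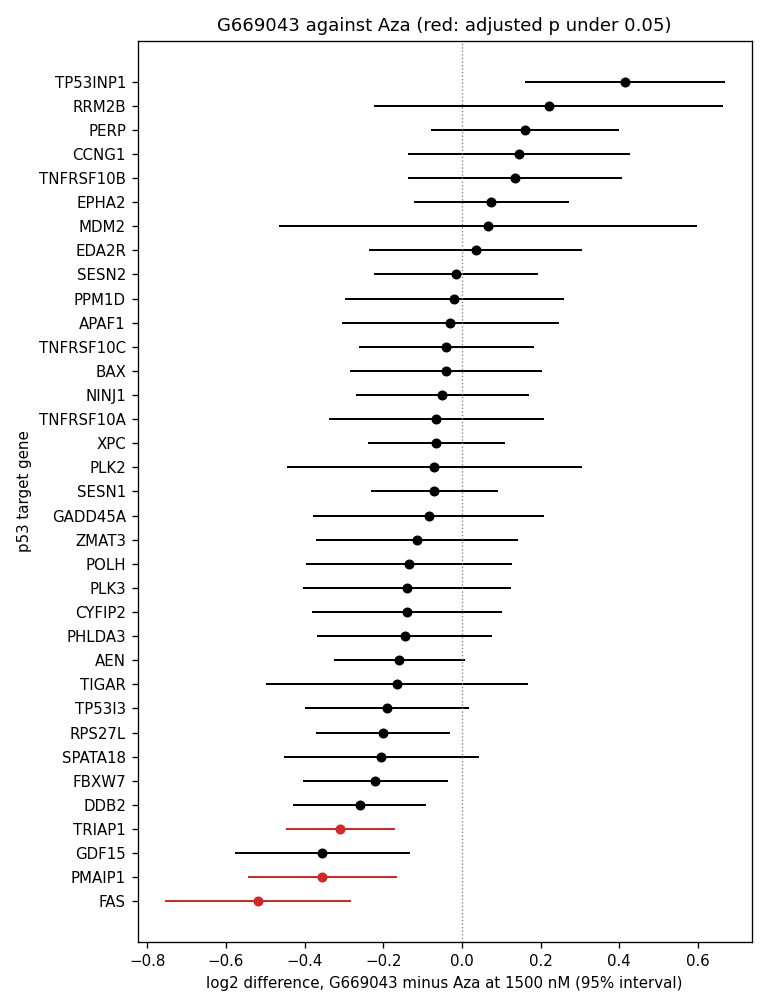
Log2 difference between G669043 and Aza at 1500 nM with its 95% interval (limma, 2 arrays each) for the 35 p53 target genes, in order of size; red marks adjusted p under 0.05. FAS, PMAIP1 and TRIAP1 are red at -0.52, -0.36 and -0.31, and TP53INP1 lies highest at 0.41.

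A list of 40 further p53 targets, of which 37 could be tested, had calls in both directions, more of them higher. After DAC at 5 µM 23 were called higher and 2 lower (62.2% higher, against 18% of all genes, median 0.39), after G668684 at 7 µM 22 and 4, and after the higher dose of G669071 19 and 4. After Aza at 1500 nM 12 and 2 were called (32.4% higher, against 8.13%), and after G669043 at 1500 nM 7 and 0 (18.9%, against 5.88%). At the lower doses of DAC, G668684, G669071, Aza and G669043 the counts were 13 and 4, 10 and 3, 8 and 2, 4 and 0, and 2 and 0. CDKN1A, the inhibitor of cyclin-dependent kinases through which p53 stops the cell cycle, rose by 1.94 after DAC at 5 µM (SE 0.073), 0.86 at 120 nM, 1.09 after Aza at 1500 nM and 0.93 after G669043 at 1500 nM. SERPINB5, a serpin, rose by 1.35 and TNFRSF10D, a decoy receptor for TRAIL, by 1.2 after DAC at 5 µM. SESN3 fell by 1.00 after Aza at 1500 nM (SE 0.17, adjusted p = 0.00036) and differed by 0.11 after DAC at 5 µM and 0.03 after G669043 at 1500 nM; the difference between Aza and G669043 at 1500 nM was called (1.02, adjusted p = 0.01), but not without Aza replicate 1 (0.80, adjusted p = 0.11) or either G669043 array (adjusted p = 0.057 and 0.13).

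Of 28 regulators of p53, 24 could be tested, and they were called in both directions: 3 higher and 5 lower after DAC at 5 µM, 2 and 7 after G668684 at 7 µM, and 2 and 1 after Aza at 1500 nM. Their shares called higher, 12.5%, 8.33% and 8.33%, stand beside 18%, 17.5% and 8.13% of all genes, of which 14.2%, 14.7% and 9.18% were called lower, and no test compares the list with all genes. MDM4, the relative of MDM2 that binds and inhibits p53, fell by 1.01 after DAC at 5 µM (SE 0.15, adjusted p = 2.6e-05) and by 1.06 after G668684 at 7 µM, and differed by -0.38 after Aza at 1500 nM (adjusted p = 0.098). CHEK1, a checkpoint kinase, fell by 0.66 and SIRT1, a deacetylase acting on p53, rose by 0.70 after DAC at 5 µM; the latter was lost against DMSO replicates 3 and 4 alone (0.35, adjusted p = 0.14) and without either array of its group (adjusted p = 0.055 and 0.093). After Aza at 1500 nM the ubiquitin protease USP7 rose by 0.21, a call lost without either array of the group (adjusted p = 0.23 and 0.069) or DMSO replicate 4 (adjusted p = 0.059). The values of HIPK2 (-0.41) and RCHY1 (0.26) there did not hold over their other probe sets: the mean of all kept probe sets gave 0.003 and -0.075.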

How the data were processed

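Gene expression in HCT116 cells was measured on 24 arrays in 11 groups. Per the submitters' processing notes the authors computed RMA values with Affymetrix Expression Console 1.1; the deposited values are linear intensity values per probe set (54675 in all), and their log2 was taken here. RMA has already made the arrays alike in brightness. Depth does not apply to arrays; their number limits the precision, and the median 95% half-width was 0.21 against DMSO and 0.24 between treated groups. Detection calls and the genome build are not given in the sources used here.

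Probe sets reaching log2 5 on 2 arrays were kept, and each of 18055 genes was represented by its kept probe set with the highest mean. For the 35 members 86 probe sets were kept, and 21 members had more than 1. A single linear model, estimating each of the groups separately, took in every array (limma 3.58.1, R 4.3.3; eBayes with an intensity trend, 13 residual and 6.14 prior degrees of freedom); 18 contrasts were tested, 2-sided, at a Benjamini-Hochberg adjusted p of 0.05. The fit was tested on simulated data. Other settings changed the filter, probe set rule, scaling, controls and arrays used. Among 276 pairs of arrays 0 were identical, and 0 columns of values were left unused. Every listed member was to be named, with CDKN1A, MDM4 and a further gene that is not reported here, and, of the regulators and further targets, the 3 called genes with the largest differences at DAC 5 µM and at Aza 1500 nM. Members, lists and tests were chosen with earlier results of these data known. Symbols follow GEO's annotation of the platform; promoter sequences are RefSeq's. Sequence searches and figures used Python 3.11.15, pandas 2.3.3 and matplotlib 3.10.9.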

Additional observations from a re-analysis of the deposited data

How the results depend on the processing

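Of 296 counts of members recomputed under other settings, 230 were within 1.5 times the reported one. Of 3868 recomputed values of called members 3523 kept direction and call, 336 lost the call and 9 changed sign, while up to 2 members were called lower in 39 of 250 runs. Without single arrays the counts ranged from 24 to 27 (DAC 5 µM), 14 to 15 (DAC 120 nM), 24 to 26 (G668684 7 µM), 11 to 15 (G668684 150 nM), 21 to 24 and 8 to 13 (higher and lower G669071), 15 to 21 (Aza 1500 nM), 0 to 5 (Aza 150 nM), 8 to 18 (G669043 1500 nM) and 0 to 10 (G669043 150 nM). Between doses they ranged from 15 to 18 (DAC), 15 to 20 (G668684), 8 to 12 (G669071), 6 to 7 (Aza) and 1 to 4 (G669043), and for G669043 against Aza they were 0 at 1500 nM, 0 at 150 nM and 0 for the dose effects. In the next sentences counts stand in the order Aza 150 nM, G669043 150 nM, Aza between doses, G669043 between doses, G669043 against Aza at 1500 nM and the dose effects, where each setting moved them by over 1.5 times. With a replicate block they were 12, 18, 16, 12, 5 and 3. With only the arrays of the contrast they were 0, 0, 17, no such move, 6 and 6, and also 2 (G669043 against Aza at 150 nM), 12 (DAC doses), 9 (G668684 150 nM), 7 (G669043 1500 nM) and 6 (lower G669071). The actin signal as a covariate gave 10 and 11 for the 150 nM groups, 6 against Aza and 3 for the dose effects. Renewed quantile normalisation gave 1 (G669043 150 nM), 11 (its doses), 6 (against Aza) and 1 (dose effects), and median centring 2 (Aza 150 nM), 3 (G669043 doses) and 0 (against Aza). For G669043 at 150 nM the mean of probe sets gave 0, no intensity trend 1, and DMSO replicates 1 and 2 or 3 and 4 left out 1 and 18, against 8 and 11 for Aza at 150 nM. Only DMSO had replicates 3 and 4, so in the replicate block each of these arrays had a term of its own. Against DMSO the block thus rested on DMSO replicates 1 and 2, as when 3 and 4 were left out. Both settings gave 18 for G669043 at 150 nM and are not separate checks there.

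Leaving out probe sets that can bind several transcripts left 26 members: 16 called at DAC 5 µM, 15 at G668684 7 µM, 15 at the higher G669071 dose, 13 at Aza 1500 nM, 2 at 150 nM, 11 and 0 for G669043, 11, 14 and 6 between doses (DAC, G668684, Aza) and 1 against Aza. Signs then changed for FAS at the higher G669071 dose (-0.043, and -0.035 between doses) and at G668684 7 µM (-0.068), PERP at DAC 5 µM (-0.195, and -0.175 between doses), GDF15 at G669043 150 nM (-0.04) and between doses of DAC (-0.025), G669071 (-0.10) and G668684 (-0.045), and RCHY1 at DAC 5 µM (-0.11), the higher G669071 dose (-0.18), G668684 7 µM (-0.15) and 150 nM (-0.39), Aza 1500 nM (-0.39) and between Aza doses (-0.55), since other probe sets then stand for these genes. The mean of probe sets changed the sign of HIPK2 (0.003) and RCHY1 (-0.075) at Aza 1500 nM, and of TNFRSF10C between G668684 doses (0.22). Same-numbered replicates deviated together in some groups only (20 of 55 group pairs correlated over 0.1, range -0.39 to 0.61, median 0.02). The main fit therefore did not take the numbers to pair the samples, whereas the replicate block did. The causes of the other moves were not tested.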

Other observations

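Second probe sets of several members gave other values than the brighter ones used above; they are given as values, with no test. After DAC at 5 µM the other probe sets of FBXW7 differed from DMSO by 0.54, 0.59 and 0.20, against 0.19 for the one used. Those of POLH differed by 0.55, 0.56, 0.01 and 0.21, against 0.08. Those of TNFRSF10C differed by 1.19, -0.03 and -0.14, against 0.22. The second of SPATA18, dim in DMSO (3.55), differed by 1.95, against 0.13. The second of CYFIP2 differed by 0.21 after DAC at 5 µM and by -0.39 after DAC at 120 nM, and others of TP53INP1 by -0.07 and 0.11 after DAC at 5 µM. Of the 15 members called after DAC at 5 µM with several probe sets, 11 had every one above DMSO.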
